A study of Mus musculus with 16 samples.

Results

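The nuclear genes of respiratory complexes II to V encode the subunits of succinate dehydrogenase (complex II), ubiquinol-cytochrome c reductase (complex III), cytochrome c oxidase (complex IV) and ATP synthase (complex V), together with cytochrome c, the carrier between complexes III and IV, and some assembly factors. Members were the gene symbols of GENCODE mouse M21, pseudogenes left out, that begin with *Uqcr*, *Uqcc*, *Atp5* or *Cox* followed by a digit from 4 to 8, and *Sdha*, *Sdhb*, *Sdhc*, *Sdhd*, *Cyc1* and *Cycs*. This gave 52 of 49066 symbols: 4 of complex II, 12 of complex III, 18 of complex IV, 17 of complex V and cytochrome c itself. RNA was sequenced from brown adipose tissue (BAT) of 16 mice on the C57BL6/J background, 4 in each group, to ask how loss of *Gdf15*, the gene of a stress-induced secreted protein, changes the tissue in each sex. WT and KO mice of both sexes made up the groups, and all were 18 weeks old and had been fed a high-fat diet with 60% of its energy from fat for 12 weeks. KO mice carried floxed *Gdf15* alleles and Cre recombinase driven by the *Ucp1* promoter, which limits the deletion to *Ucp1*-expressing adipocytes. Since Cre was present only in KO mice, while WT mice were also homozygous for the floxed gene, an effect of Cre itself cannot be told apart from that of the deletion.

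The respiratory chain passes electrons from fuel molecules to oxygen and pumps protons across the inner mitochondrial membrane, and ATP synthase lets the protons return while making ATP. In brown adipocytes uncoupling protein 1 offers the protons another way back, which releases heat, and brown fat is known for abundant respiratory chain beside little ATP synthase. Several subunits come as alternative isoforms from separate genes: *Cox6a2*, *Cox7a1* and *Cox8b* are the heart and muscle forms, which brown fat may share, *Cox4i2* is best known from lung, and *Atp5g1*, *Atp5g2* and *Atp5g3* encode the same mature subunit c.

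Levels are given as rescaled TPM, that is, TPM divided by a library factor (0.841 to 1.17) set by the median ratio over 11712 genes. TPM is corrected for transcript length, so levels of different genes can be set side by side, but it does not show how many reads a value rests on. How well the correction holds for short transcripts such as that of *Cox8b* (360 bases) was not tested, which limits rankings of genes and complexes. *Gdf15* read 0.437, 0.643, 1.63 and 3.6 in male WT and 0.0872, 0.0687, 0.228 and 0.254 in male KO. In females it read 0.0588, 0.369, 0.171 and 0.337 in WT and was listed at 0 in KO 1, 2 and 4 and at 0.0868 in KO 3. Each male KO library was below each male WT library, whereas female KO 3 was above female WT 1. With a mean of 0.498 the gene was below the minimum mean of 1 used for testing. *Ucp1*, which marks brown adipocytes, read 3119 to 4585 in male WT, 3247 to 3588 in male KO, 2966 to 3264 in female WT and 2573 to 4347 in female KO, and the groups overlapped in both sexes. All 12 brown adipocyte markers were found and none was at 0 in every library.

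Some libraries stood apart. In female WT 4, 17.7% of the TPM lay on transcripts absent from the annotation, 16.5% on a single one, compared with 0.33 to 0.48% in the other libraries. The balance of signal along transcripts also differed. As its measure, TPM on 2278 short annotated transcripts from the 3′ side of longer ones was divided by TPM on 10439 such transcripts from the 5′ side, in 5552 genes outside the members, and expressed as log2. This ratio was −0.351, 0.308, −0.281 and −0.61 in male WT and 0.006, −0.308, −0.486 and −0.498 in male KO. In females it was −0.234, −0.448, −0.649 and −0.381 in WT and 0.761, −0.185, 0.14 and 0.298 in KO. It was highest in female KO 1, male WT 2 and female KO 4, and each female KO library was above each female WT library, so that genotype and this ratio are confounded in females. The labels also open each library name with 5, 8b, 9 or 10, whose meaning they do not state. These numbers are spread unevenly over the groups.

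Complex IV and complex V held most of the members' signal. Summed over its members, complex IV read 16744 ± 2528 rescaled TPM (SD, n = 16), complex V 14029 ± 1486, complex III 8480 ± 772, complex II 2585 ± 255 and cytochrome c 75.6 ± 12.7. These sums were 39.8%, 33.5%, 20.3%, 6.24% and 0.182% of the members' TPM. Over protein-coding transcripts alone the sums kept this order, with 14142 for complex IV, 10738 for complex V, 7491 for complex III and 2550 for complex II. The median member of complex IV read 1001, of complex III 796, of complex II 639 and of complex V 549, whereas over protein-coding transcripts complex III (664) and complex II (646) were above complex IV (600) and complex V (496). Of the TPM on annotated transcripts outside the mitochondrial genome, the members took 5.89% in female WT 4, the lowest. The highest share was 9.74%, in male WT 2. Transcripts absent from the annotation, 17.7% of the TPM in female WT 4, were not in this total. The median coefficient of variation over the 16 libraries was 14.7% for the 50 members with a mean of at least 1 and 18.4% for 12208 genes. The genes were not matched to the members for level, and 14 of these members had means of 1000 or more.

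**Figure D1:**
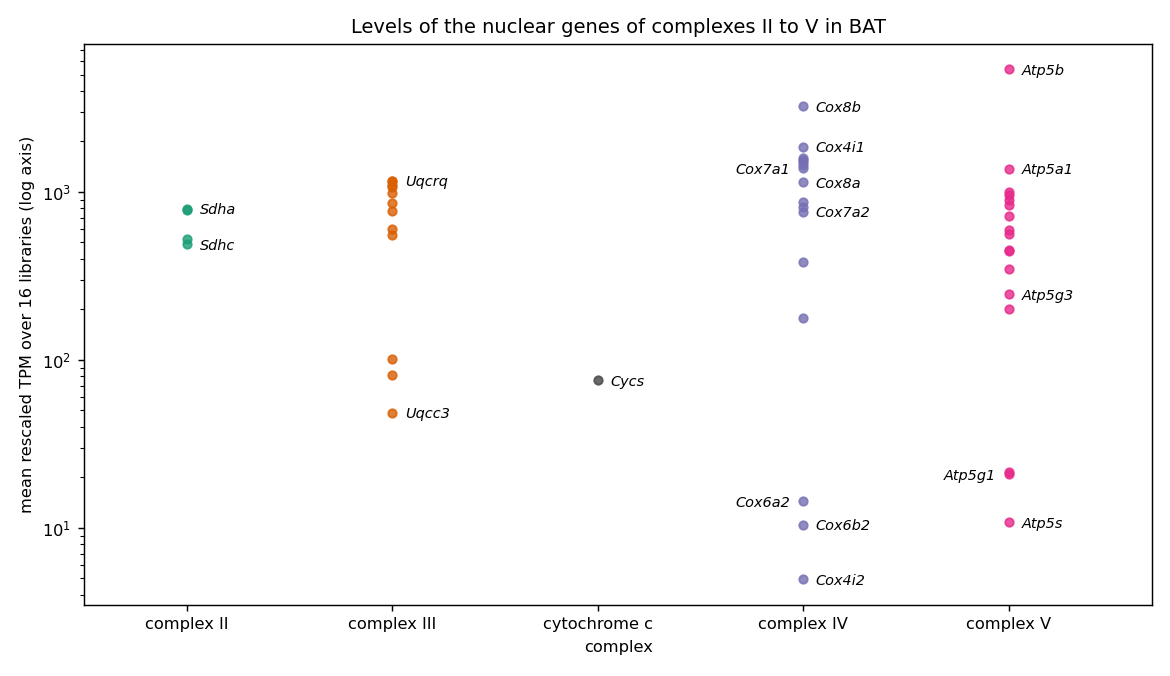
Mean rescaled TPM of each member over the 16 libraries, grouped by complex on a log axis. *Atp5b* (5358, or 2790 over protein-coding transcripts) and *Cox8b* (3234) lie at the top, and the isoforms *Cox4i2* (4.94), *Cox6b2* (10.4) and *Cox6a2* (14.4) of complex IV are far below.

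*Atp5b*, the catalytic beta subunit of ATP synthase, had the highest TPM of the members in 16 of 16 libraries when all its transcripts were summed, with a mean of 5358. *Cox8b*, the muscle form of subunit 8, followed with 3234 and led complex IV in 16 of 16. Over protein-coding transcripts the order of the means turned, with 3230 for *Cox8b* and 2790 for *Atp5b*, and *Cox8b* was highest in 9 libraries and *Atp5b* in 7. *Cox4i1*, the common form of the largest nuclear subunit of complex IV, had a mean of 1861, *Cox6a1* 1591 and *Cox5b* 1553, the last with 333 over protein-coding transcripts. In complex III the small subunit *Uqcrq* (1165) and the hinge protein *Uqcrh* (1156) were highest, followed by cytochrome c1, *Cyc1* (1101), which read 442 over protein-coding transcripts. Over these transcripts *Uqcrh* (1100) was highest, followed by *Uqcr11* (1060) and *Uqcrq* (1050). In complex II the flavoprotein *Sdha* (791) and the iron-sulfur protein *Sdhb* (777) were above the membrane anchors *Sdhd* (528) and *Sdhc* (489). Of the tested members 14 had means of 1000 or more and 9 means under 100. The latter included cytochrome c (*Cycs*, 75.6), the complex III assembly factors *Uqcc1* (81.6) and *Uqcc3* (48.3) and the isoforms *Atp5g2* (21.5), *Atp5g1* (20.8), *Cox6a2* (14.4), *Cox6b2* (10.4) and *Cox4i2* (4.94). *Atp5s*, a coupling factor outside the enzyme, read 10.8. *Cox7b2* had a mean of 0.025 and *Cox8c* was listed at 0 in all 16 libraries, and neither was tested. The Rieske protein *Uqcrfs1* varied least (coefficient of variation 6.04%), and *Cox6a2* (141%) and *Atp5g1* (79.2%) varied most.

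A gene's TPM also included transcripts annotated as noncoding. Protein-coding transcripts held 51.9% of the TPM of *Atp5b*, 40.2% of *Cyc1*, 34.9% of *Cox7a2*, 27.4% of *Cox7b* and 21.5% of *Cox5b*. In *Atp5b* a noncoding transcript of 478 bases from the 3′ side took 56.3% of the gene's TPM in female KO 1, 50.2% in female KO 4 and 46.6% in male WT 2, and 24.2 to 37.9% elsewhere. A retained-intron transcript of *Sdha* of 858 bases, also from the 3′ side, took 26.0% and 13.3% in female KO 1 and 4, 4.48% in male WT 2 and at most 2.06% elsewhere. The opposite held for a 5′ transcript of *Cyc1* of 737 bases, with 0.029%, 0.066% and 0.359% in those libraries and 1.81 to 10.7% in the others. The libraries with a high 3′ to 5′ ratio over other genes were thus the ones with the most 3′ signal within members.

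In males most members were lower in KO than in WT, by small amounts. Of the 50 tested members 8 had a log2 fold change above 0, and the median was −0.17 compared with 0.00 over all 12077 genes tested. With limma, 0 members passed an adjusted p of 0.05, as did 0.0248% of all genes. At an unadjusted p under 0.05, 0 members were higher (8.3% of all genes) and 10 were lower (7.3% of all genes). These were *Uqcrb*, *Uqcrh*, *Cycs*, *Cox7b*, *Atp5h*, *Atp5l* and *Atp5mpl*, and *Cox6c*, *Atp5j2* and *Atp5k*, which are named because of their values. With all 16 libraries in one fit, *Cycs*, *Cox7b*, *Atp5l*, *Cox6c*, *Atp5j2* and *Atp5k* were no longer under 0.05, with the same log2 fold changes. *Atp5h* and *Atp5mpl* were under 0.05 in that fit too. The medians were −0.06 for complex II, −0.14 for complex III, −0.18 for complex IV and −0.22 for complex V. On the TPM as deposited the median of all genes moved by 0.16 and that of the members moved with it to 0.00, with 26 of 50 above 0 and 0 lower at unadjusted p under 0.05 (1.07% of all genes). The members were thus below all genes by a similar amount under both, and the sign of their median follows from the scaling.

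In complex II, *Sdhb* read 817, 877, 820 and 788 in male WT and 803, 763, 748 and 744 in male KO. The groups overlapped through KO 1, and the log2 fold change was −0.11 (SE 0.06, adjusted p = 0.425). In complex III, *Uqcrc1*, one of the core proteins, read 865, 892, 893 and 915 in male WT and 946, 949, 950 and 919 in male KO. Each KO library was above each WT library by a narrow margin, for a log2 fold change of 0.08 (SE 0.05, adjusted p = 0.526). *Uqcrb*, a small subunit, read 821, 822, 865 and 753 in male WT and 750, 708, 684 and 656 in male KO. Here each KO library was below each WT library, for a log2 fold change of −0.22 (SE 0.07, adjusted p = 0.222). *Uqcrc1* was the only member whose groups did not overlap with KO higher, which held for 4.85% of all genes, and *Uqcrb* the only one with KO lower, which held for 4.27%.

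*Cycs*, which moves electrons between complexes III and IV, read 96.6, 71.2, 92.4 and 80.2 in male WT and 71.3, 67.6, 70.8 and 69.0 in male KO. The KO libraries lay close together at the low end and overlapped the WT group through WT 2 and KO 1, and the log2 fold change was −0.28 (SE 0.10, adjusted p = 0.251). In complex IV, *Cox7b* read 857, 908, 834 and 758 in male WT and 797, 713, 731 and 694 in male KO. WT 4 was below KO 1, and the log2 fold change was −0.19 (SE 0.08, adjusted p = 0.291). In complex V, *Atp5l*, subunit g of the membrane part, read 599, 679, 591 and 563 in male WT and 581, 479, 470 and 468 in male KO. KO 1 was inside the WT range and the other KO libraries were below it, with a log2 fold change of −0.29 (SE 0.09, adjusted p = 0.227). The alpha subunit *Atp5a1* read 1397, 1241, 1524 and 1490 in male WT and 1356, 1481, 1512 and 1465 in male KO. These groups overlapped fully, with a log2 fold change of 0.04 (SE 0.08, adjusted p = 0.843). On the TPM as deposited, with that shift of all genes included, these changes were 0.06 for *Sdhb*, 0.25 for *Uqcrc1*, −0.05 for *Uqcrb*, −0.10 for *Cycs*, −0.02 for *Cox7b*, −0.11 for *Atp5l* and 0.22 for *Atp5a1*, and that of *Cox7b* was −0.08 and of *Cycs* −0.15 over protein-coding transcripts.

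The count of lower members in males turned on single libraries. It was 20 without male KO 1 (7.73% of all genes were lower in that fit), 16 without male WT 4 (8.4%), 7 without male WT 3 (6.91%) and 5 without male WT 2 (7.59%). It was 4 without male KO 2 (5.12% of all genes), and 3 without male WT 1 (5.27%), male KO 3 (4.96%) or male KO 4 (5.35%). The members' median lay between −0.23 and −0.11 with each library left out, and was −0.11 without male WT 2, in which the members were highest. With the 3′ to 5′ ratio as a covariate, an alternative chosen after seeing the data, 24 members and 9.65% of all genes were lower, and the members' median was −0.13. With length and GC trends removed, 22 members and 10.5% of all genes were lower. With the library-name number as a covariate, 2 members and 4.26% of all genes were lower. Within the libraries that open with 9 (2 WT and 3 KO), 8 members were higher and 42 lower in KO, with a median of −0.13.

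Some markers of other cell types were higher in male KO. Of 8 macrophage markers, 7 were higher at unadjusted p under 0.05 (8.3% of all genes were), with a median log2 fold change of 0.78, and none was at 0 in every library. Their summed rescaled TPM was 48.2, 72.4, 53.1 and 74.3 in male WT and 96.9, 126, 102 and 140 in male KO, and the most abundant was *Lyz2* (mean 39.9). Of 6 fibroblast markers, 3 were higher, with a median of 0.51 and none at 0 everywhere. Their sums were 121, 144, 104 and 143 in male WT and 190, 180, 189 and 196 in male KO, led by *Col3a1* (73.3). Of 12 brown adipocyte markers 4 were lower (7.3% of all genes were), with a median of −0.16. Their sums were 14719, 15055, 14810 and 13098 in male WT and 13220, 12124, 12068 and 12696 in male KO, led by *Fabp4* (6286). *Fabp4* is a gene of adipocytes in general, so these sums do not measure brown adipocytes alone, and the *Ucp1* levels overlapped between the groups. Of 4 red blood cell markers, none at 0 everywhere, 2 were higher, with a median of 0.67. Their sums ran from 1894 to 3107 in male WT and were 6145, 4172, 2900 and 2968 in male KO, led by *Hbb-bs* (1982). Of 5 white adipocyte markers (median −0.30), 4 endothelial markers (0.25) and 14 skeletal muscle markers (0.36), 0 were called in either direction. Each male KO library was above each male WT library in the macrophage and fibroblast sums. The part of these cell types in the values of the members was not tested, and in bulk tissue fewer cells of a type and less RNA per cell cannot be told apart.

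In females the direction of the members went with complex and with transcript length, which largely coincide. Length is the mean over a gene's annotated transcripts, weighted by their TPM in these libraries, noncoding ones included. Of complex II only *Sdhc* (908 bases) is under 1000 bases, and of the tested members of complex IV only *Cox7a2l* (1078 bases) is not. The main coding transcripts of *Cox7b* and *Cyc1*, counted as shorter at 655 and 974 bases, have 1001 and 1520 bases. The length classes thus partly follow which transcripts held the TPM. Under 1000 bases 34 of 36 members were above 0, and from there on 2 of 14. The complexes were not tested against each other. All 16 tested members of complex IV had log2 fold changes above 0 (median 0.25), as did 13 of 17 in complex V (0.18) and 7 of 12 in complex III (0.13), whereas 0 of 4 in complex II did (−0.30). Over all members 36 of 50 were above 0 and the median was 0.20, compared with 0.00 over 12212 genes. With limma, 0 members passed an adjusted p of 0.05, and so did 0% of all genes. At an unadjusted p under 0.05, 3 members were higher, *Cox4i2*, *Uqcc3* and *Atp5e* (9.95% of all genes), and 4 were lower, *Uqcrc2*, *Sdha*, *Atp5a1* and *Sdhc* (10.3% of all genes). The shares of members called in either direction, 3 and 4 of 50, were thus not above those of all genes.

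*Sdha*, which oxidizes succinate, read 852, 905, 873 and 742 in female WT and 619, 778, 684 and 580 in female KO. The lowest KO values were those of KO 1 and KO 4, and KO 2 overlapped the WT group. The log2 fold change was −0.35 (SE 0.12, adjusted p = 0.195), −0.12 with the 3′ to 5′ ratio as a covariate and −0.20 without KO 1 and KO 4, an alternative also chosen after seeing the data. Because genotype and the ratio are confounded in females, a value with this covariate is not a corrected estimate, here and below. *Sdhc*, a membrane anchor, read 530, 533, 521 and 440 in female WT and 314, 484, 443 and 351 in female KO. Again KO 1 and KO 4 were lowest, and WT 4 was below KO 2 and KO 3. Its log2 fold change was −0.36 (SE 0.16, adjusted p = 0.238), 0.04, in the other direction, with the ratio as a covariate, and −0.12 without KO 1 and KO 4. *Sdhb* read 844, 794, 788 and 670 in female WT and 784, 775, 748 and 665 in female KO, and these groups overlapped.

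*Uqcrc2*, the other core protein of complex III, read 612, 780, 658 and 569 in female WT and 392, 549, 528 and 387 in female KO. Each KO library was below each WT library, as in 6.49% of all genes, with KO 1 and KO 4 lowest. The log2 fold change was −0.50 (SE 0.16, adjusted p = 0.18), −0.14 with the ratio as a covariate and −0.27 without KO 1 and KO 4. *Uqcc2*, an assembly factor, read 96.8, 95.7, 95.7 and 72.2 in female WT and 117, 99.8, 112 and 103 in female KO. It and *Cox4i2* were the 2 members with each KO library above each WT library, as in 5.41% of all genes. The log2 fold change of *Uqcc2* was 0.27 (SE 0.12, adjusted p = 0.257), 0.17 with the ratio as a covariate and 0.16 without WT 4. *Uqcc3*, another assembly factor, read 51.1, 37.7, 50.9 and 32.1 in female WT and 72.6, 55.5, 46.0 and 61.9 in female KO. KO 3 lay inside the WT range, and the log2 fold change was 0.46 (SE 0.19, adjusted p = 0.231), 0.20 with the ratio as a covariate and 0.26 without KO 1 and KO 4.

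*Cox4i2* read 4.2, 3.82, 3.89 and 2.88 in female WT and 9.27, 5.07, 5.95 and 6.71 in female KO. The groups did not overlap, and KO 1 was highest. The log2 fold change was 0.77 (SE 0.18, adjusted p = 0.169), and the adjusted p was 0.0307 when all 16 libraries shared an estimate of the spread, a fit in which 568 of all genes passed. With the ratio as a covariate the change was 0.27, and without KO 1 and KO 4 it was 0.52. Of 4 endothelial markers, none at 0 everywhere, 3 were higher in female KO at unadjusted p under 0.05 (9.95% of all genes were), with a median of 0.62. Their summed level was 139, 130, 141 and 193 in female WT and 336, 174, 205 and 251 in female KO, led by *Cdh5* (63.5), and KO 1 was again highest; their part in the level of *Cox4i2* was not tested. *Cox8b* read 3581, 2598, 3213 and 1874 in female WT and 4710, 3417, 2928 and 4069 in female KO. The groups overlapped, with WT 4 lowest and KO 1 highest, and the log2 fold change was 0.44 (SE 0.23, adjusted p = 0.298). It was 0.26 without WT 4, 0.33 without KO 1, 0.21 without KO 1 and KO 4, and 0.11 with the ratio as a covariate.

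In ATP synthase, the epsilon subunit *Atp5e* read 1004, 845, 955 and 716 in female WT and 1385, 974, 1043 and 1130 in female KO. Only KO 2 was inside the WT range, and the log2 fold change was 0.36 (SE 0.15, adjusted p = 0.235). It was 0.05 with the ratio as a covariate, 0.21 without KO 1 and KO 4, and 0.11 without WT 4 as well. *Atp5a1* went the other way, with 1486, 1486, 1424 and 1343 in female WT and 1139, 1360, 1210 and 1039 in female KO. KO 1 and KO 4 were again among the lowest and KO 2 overlapped the WT group, with a log2 fold change of −0.28 (SE 0.11, adjusted p = 0.222), −0.13 with the ratio as a covariate and −0.16 without KO 1 and KO 4. *Atp5b* read 5204, 4861, 4858 and 4631 in female WT and 7252, 4942, 5109 and 5537 in female KO. KO 1 stood above the others, and the log2 fold change was 0.21 (SE 0.14, adjusted p = 0.415) over all its transcripts and −0.44 over protein-coding transcripts alone. It was 0.09 without KO 1, 0.04 without KO 1 and KO 4, and −0.16 with the ratio as a covariate, so its direction depends on the setting.

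Direction in females followed transcript length. Spearman's rho between transcript length and log2 fold change was −0.69 across 50 members and −0.25 across 12212 genes, in both cases across genes, which are not independent replicates. The 36 members under 1000 bases had a median of 0.25 and the 14 longer ones −0.17, compared with 0.14 and −0.02 over the 2122 shorter and 10090 longer genes tested. In males rho was 0.47 across members and 0.08 across all genes, with medians of −0.20 and −0.10 for the shorter and longer members and −0.09 and 0.01 for all shorter and longer genes. With length and GC trends removed in females, 1 member was higher (8.9% of all genes in that fit) and 7 were lower (9.47%), 31 of 50 were above 0 and the median was 0.08. Cytosolic ribosomal proteins, a list of short and abundant mRNAs, were higher at unadjusted p under 0.05 in females in 61 of 85 genes (71.8%, against 9.95% of all genes), with a median of 0.48. With the 3′ to 5′ ratio as a covariate, 0 members were higher (1.07% of all genes in that fit) and 0 lower (1.59%), the members' median was 0.04, and 0 ribosomal proteins were higher with a median of 0.16. Without female KO 1 and KO 4, 1 member was higher (2.69% of all genes) and 0 lower (3.7%) with a median of 0.09. Without female WT 4 as well, 1 was higher (3.95% of all genes) and 2 were lower (3.88%) with a median of −0.01. Leaving out a single WT library gave 10 higher and 2 lower without WT 1 (9.95% and 9.94% of all genes), 2 and 1 without WT 2 (6.66% and 6.53%) or WT 3 (7.64% and 7.6%), and 1 and 6 without WT 4 (10.1% and 8.91%). Leaving out a KO library gave 1 and 1 without KO 1 (5.6% and 5.98% of all genes) or KO 4 (6.27% and 6.79%), 3 and 7 without KO 2 (12.5% and 12.9%), and 5 and 4 without KO 3 (12% and 12%). Since each female KO library had a higher ratio than each female WT library, genotype and the ratio cannot be told apart in females. Within the library-name numbers shared by both genotypes, the median difference was 0.12 for 10 (1 WT, 1 KO) and 0.13 for 8b (3 WT, 1 KO).

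**Figure D2:**
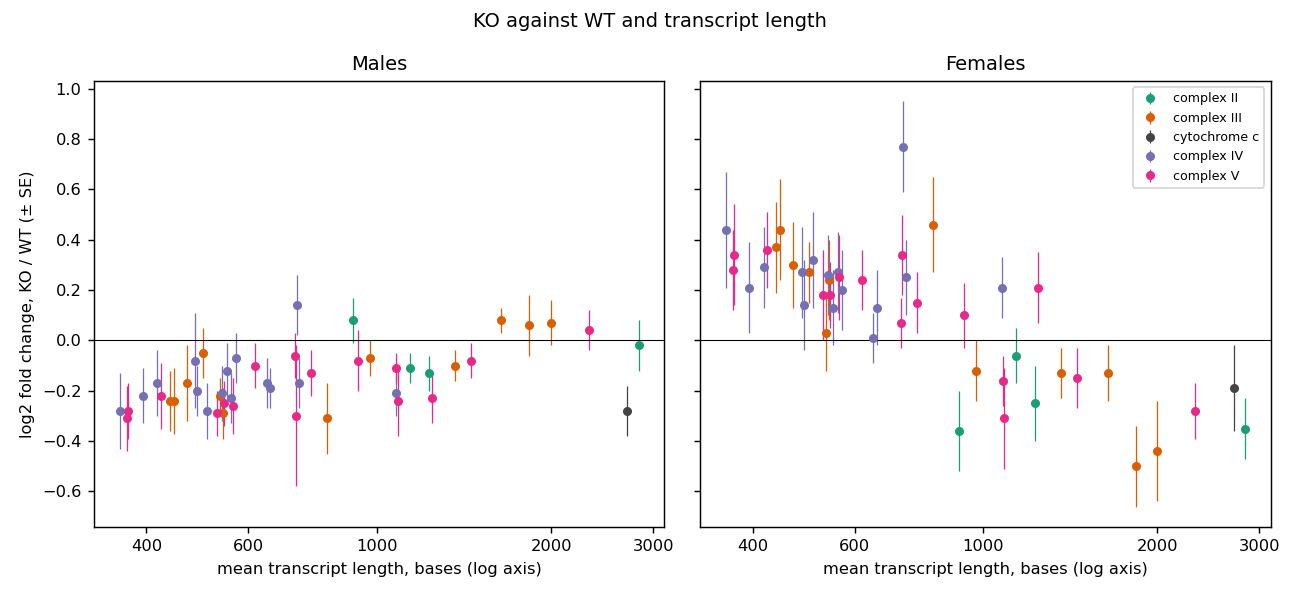
Log2 fold change (KO over WT, ± SE) of tested members against mean transcript length in bases, weighted by TPM, with males and females in separate panels. *Cox6a2* and *Atp5g1* are left out because their SE is far larger. In females members under 1000 bases have a median of 0.25 and longer ones −0.17, and in males the medians are −0.20 and −0.10.

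The KO effect was then compared between the sexes in a single fit of all 16 libraries, as female minus male. The median difference over the members was 0.34 compared with 0.00 over 12208 genes, and 38 of 50 were above 0, among them 16 of 16 in complex IV (median 0.42). With limma, 0 members passed an adjusted p of 0.05, as did 0% of all genes. At an unadjusted p under 0.05, 20 members were higher (9.01% of all genes) and 5 lower (9.98% of all genes). The smallest p was that of *Uqcc3*, with a difference of 0.77 (SE 0.25, adjusted p = 0.184). *Cox7a2l*, a factor for the assembly of supercomplexes, differed by 0.42 (SE 0.14, adjusted p = 0.191). *Atp5mpl*, a small protein of ATP synthase, differed by 0.60 (SE 0.21, adjusted p = 0.191), and *Uqcrc2* by −0.56 (SE 0.20, adjusted p = 0.195). *Atp5b* differed by 0.44 over all its transcripts and by −0.44 over protein-coding ones.

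These differences were larger in shorter transcripts, with medians of 0.44 under 1000 bases and −0.07 from there on (0.22 and −0.03 over all genes), and a rho of −0.72 across the 50 members, which are not independent replicates, and −0.26 across all genes. With the 3′ to 5′ ratio as a covariate, 0 members were higher (1.6% of all genes in that fit) and 0 lower (2.07%), and the median was 0.08. The difference of *Uqcc3* was then 0.37, of *Cox7a2l* 0.21, of *Atp5mpl* 0.23, of *Uqcrc2* −0.18 and of *Atp5b* 0.08. Without female KO 1 and KO 4, 1 member was higher (3.63% of all genes) and 0 were lower (4.03%), with a median of 0.27. On the TPM as deposited 1 was higher (2.51% of all genes) and 3 were lower (11.7%). With 1 library left out at a time, 12 were higher and 1 lower without male WT 2 (5.96% and 6.69% of all genes), 13 and 2 without female KO 1 (6.21% and 6.7%), and 15 and 1 without female KO 4 (6.9% and 7.58%). Without any other library between 16 and 25 were higher and 3 to 6 lower (6.93 to 11.3% and 7.51 to 12.4% of all genes). Of 38 genes with complex I subunit symbols, 20 were higher (9.01% of all genes) and 2 lower (9.98%), with a median of 0.37, and 64 of 85 ribosomal proteins were higher, with a median of 0.61.

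Cell type markers also differed in this comparison. At an unadjusted p under 0.05, met by 9.01% of all genes with a higher and 9.98% with a lower value, 6 of 8 macrophage (median −0.78), 3 of 6 fibroblast (−0.47) and 2 of 4 red blood cell markers (−0.94) were lower. Of 12 brown adipocyte markers 3 were higher and 1 was lower (0.32). Of 4 endothelial markers 1 was higher (0.42), of 5 white adipocyte markers 1 was higher and 1 lower (−0.30), and of 14 skeletal muscle markers 0 were called (0.86). In females the macrophage sums were 57.2, 76.8, 106 and 55.3 in WT and 93.1, 63.6, 78.5 and 87.9 in KO, and the fibroblast sums 135, 146, 185 and 153 in WT and 207, 127, 175 and 158 in KO. The red blood cell sums were 3318, 8966, 6444 and 6231 in female WT and 4587, 4427, 8894 and 3035 in female KO. The brown adipocyte sums were 12162, 13010, 12905 and 10819 in female WT and 14126, 12478, 11520 and 15632 in female KO. The groups overlapped in each of these sums in females, and the part of the markers in the members' differences was not tested.

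Between the sexes without the deletion, most members had log2 fold changes slightly below 0 in females, and none was called lower. Female WT over male WT had a median log2 fold change of −0.14 over the members, with 7 of 50 above 0, and −0.03 without female WT 4. Length was related to the values here too, with a rho of 0.47 across 50 members, which are not independent replicates, and 0.28 across all genes. The medians under and from 1000 bases were −0.16 and −0.06 for members and −0.10 and 0.01 for all genes. With limma, 0 members passed an adjusted p of 0.05, compared with 0.0741% of all genes. At an unadjusted p under 0.05, *Cox6b2*, the testis form of subunit 6B, was higher (2.98% of all genes) and 0 members were lower (2.88% of all genes). *Cox6b2* read 7.62, 11.5, 7.96 and 5.85 in male WT and 15, 8.93, 10.5 and 12.4 in female WT. The groups overlapped through male WT 2, with a log2 fold change of 0.50 (SE 0.21, adjusted p = 0.842). No member had each female library above each male one (2.07% of all genes), and 2 had each female library below (1.79% of all genes). Of these, *Atp5b* read 5706, 6882, 5512 and 5329 in male WT and 5204, 4861, 4858 and 4631 in female WT. *Atp5g3*, the main source of subunit c, read 259, 297, 254 and 247 in male WT and 243, 243, 219 and 205 in female WT. Neither passed (log2 fold changes −0.25 and −0.22), and that of *Atp5b* was −0.05 over protein-coding transcripts. Of the markers, 4 of 4 for red blood cells were higher in female WT at unadjusted p under 0.05, with a median of 1.28 and sums of 3318 to 8966 against 1894 to 3107 in male WT. Of 6 fibroblast markers 2 were higher (median 0.38), and 0 of 14 skeletal muscle markers were above 0 (median −2.84) with none called. Their part in the members' values was not tested. This comparison uses the same WT libraries as those of KO with WT.

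Isoform use was compared as the share of an isoform in the summed TPM of its family within a library, which does not depend on library scaling. Each share was tested with an exact two-sided permutation test, and p-values were adjusted over 18 tests, of which the smallest adjusted p was 0.171. *Cox8b* made up 73.5% of the TPM of subunit 8 on average, from 64.0% in female WT 4 to 77.2% in male WT 2. In males its share was 75.7, 77.2, 74.2 and 73.3% in WT and 73.0, 74.2, 71.9 and 72.7% in KO. KO was lower by a mean of −2.17 percentage points with overlapping groups (exact permutation p = 0.0571, adjusted p = 0.171). In females it was 72.7, 72.2, 74.5 and 64.0% in WT and 76.6, 75.5, 73.5 and 75.4% in KO. KO was higher by 4.4 points, with KO 3 inside the WT range (exact permutation p = 0.0571, adjusted p = 0.171), and the difference was 2.12 points without WT 4.

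*Cox7a1* made up 64.5% of the TPM of subunit 7A beside *Cox7a2*, from 60.8 to 66.8%, and 83.7% when only protein-coding transcripts were summed. Its mean share was 65.9% in male WT and 65.8% in male KO, and 63.6% in female WT and 62.8% in female KO. Both differences were smaller than the spread between libraries (exact permutation p = 0.8 and 0.571), and over protein-coding transcripts that in females was 1.48 points, with KO higher. The heart and muscle forms of subunits 7A and 8 were thus the main ones in this tissue in all 16 libraries, whereas *Cox6a2* was a minor one.

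*Cox4i2* was a small part of subunit 4 everywhere, at 0.209 to 0.383% beside *Cox4i1*. Its share was 0.221, 0.236, 0.222 and 0.219% in male WT and 0.257, 0.31, 0.324 and 0.242% in male KO. In females it was 0.209, 0.221, 0.215 and 0.211% in WT and 0.383, 0.269, 0.329 and 0.324% in KO. In both sexes each KO library was above each WT library, by means of 0.0583 and 0.112 percentage points. Both exact permutation tests gave the smallest p that 4 libraries against 4 can give, and an adjusted p of 0.171. Whether the differences in males and in females differ from each other was not tested. In males the *Cox4i2* level itself overlapped between the groups, with a log2 fold change of 0.14 beside −0.17 for *Cox4i1*. In females these were 0.77 and 0.25. *Cox6b2* took 0.846 ± 0.248% of subunit 6B in female WT and 0.508 ± 0.0798% in male WT (SD), and each female library was above each male one (exact permutation, adjusted p = 0.171). In both sexes its KO and WT groups overlapped.

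**Figure D3:**
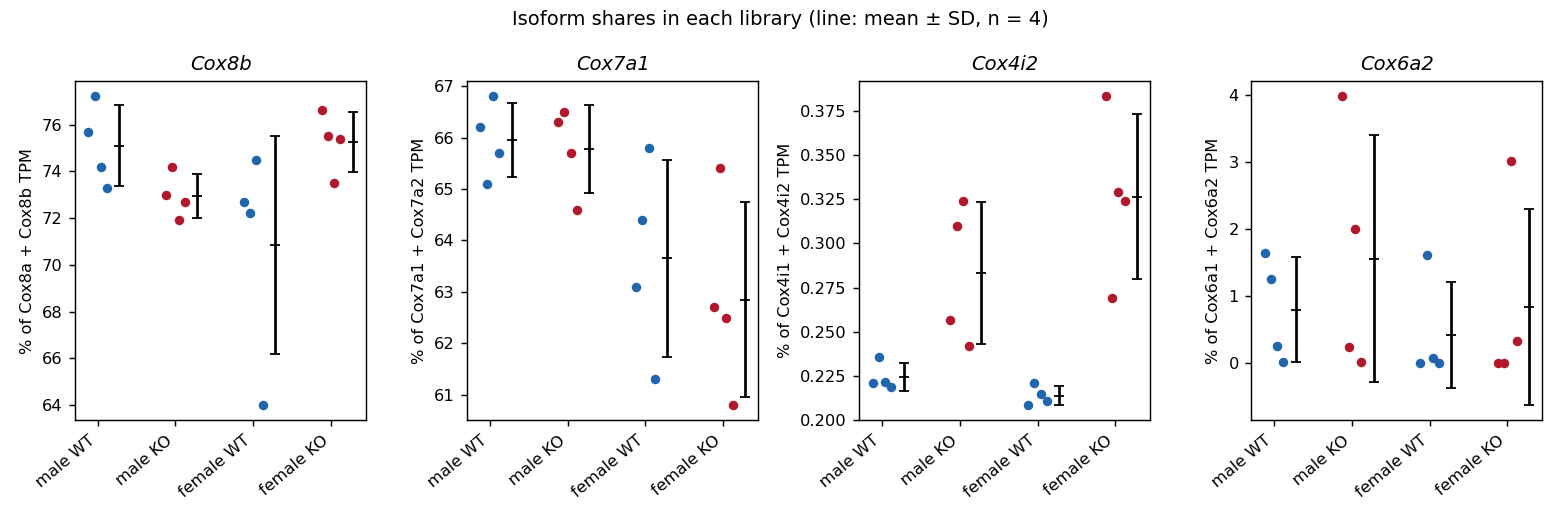
Share (%) of *Cox8b*, *Cox7a1*, *Cox4i2* and *Cox6a2* in the TPM of their isoform families, with a point per library and mean ± SD per group (n = 4). The *Cox4i2* share of each KO library lies above that of each WT library in both sexes, while the *Cox6a2* share runs from 0 to 3.98% with no order by group.

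*Cox6a2*, the muscle form of subunit 6A, read 24.8, 24.0, 3.57 and 0.286 in male WT and 68.4, 3.5, 30.8 and 0.201 in male KO. In females it read 0, 21.4, 1.19 and 0 in WT and 0.142, 0, 46.5 and 5.84 in KO. Male KO 1 and female KO 3 were highest, and the groups overlapped in both sexes. *Atp5g1* had its highest shares of subunit c in the same libraries, 17.2% in male KO 1, 16.2% in female KO 3 and 10.1% in male KO 3, with 2.5 to 8.51% elsewhere. Skeletal muscle markers, of which 14 of 14 were found and none was at 0 everywhere, summed to 2262, 2479, 356 and 25.9 in male WT and 5834, 446, 2946 and 23.4 in male KO. In females they summed to 7.24, 2079, 129 and 10.7 in WT and 24.0, 12.0, 5712 and 524 in KO, and *Acta1* was the most abundant (mean 279). The libraries with most muscle marker signal, male KO 1 and female KO 3, were those with most *Cox6a2* and *Atp5g1*; the part of muscle RNA in the levels of these genes was not tested. Without male KO 1 the *Cox6a2* difference in males was −0.0444 points in place of 0.764, and without female KO 3 that in females was −0.312 in place of 0.415.

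Assembly factors and other genes of the same complexes were compared at unadjusted p under 0.05, and none passed the adjusted threshold. Of 24 tested genes for complex IV assembly, a list that also holds the subunit *Ndufa4*, 0 were higher and 7 lower in males (29.2%, against 7.3% of all genes), with a median of −0.04. In females 1 was higher and 5 were lower (20.8%, against 10.3% of all genes), with a median of 0.01. *Cox15*, needed to make heme A, read 14.4, 18.9, 16.9 and 16.5 in female WT and 7.21, 13.5, 10.7 and 7.31 in female KO. The groups did not overlap, as in 6.49% of all genes with KO lower, and KO 1 and KO 4 were again lowest. The log2 fold change was −0.80 (SE 0.20, adjusted p = 0.169), and genotype and the 3′ to 5′ ratio are confounded here too. *Lrpprc*, which stabilizes mitochondrial mRNAs, had −0.56 (SE 0.17, adjusted p = 0.178) in females and −0.02 in males. *Cox16* had −0.27 (SE 0.07, adjusted p = 0.184) in males and 0.20 in females. Among 4 complex II assembly factors 0 were higher in either sex and 1 was lower in males, and among 3 of complex III 1 was lower in females. Of 5 genes for assembly and regulation of complex V, 1 was lower in each sex; in males this was *Atpaf1*, a chaperone of the F1 part, with −0.27 (SE 0.08, adjusted p = 0.193). The 6 subunits of complexes III to V encoded in the mitochondrial genome had medians of −0.30 in males and −0.05 in females, with 0 called at unadjusted p under 0.05 in either sex, and *mt-Co1* was the most abundant (67344).

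Of 10 transcriptional regulators of mitochondrial genes, 0 were higher and 3 lower in males (7.3% of all genes were lower), and 1 was higher and 3 were lower in females (10.3% of all genes were lower), with medians of −0.09 and −0.10. *Ppara*, a receptor for fatty acids, read 63.7, 44.2, 63.4 and 60.8 in female WT and 22.6, 33.1, 27.2 and 27.9 in female KO. Each KO library was below each WT library, as in 6.49% of all genes, with a log2 fold change of −1.05 (SE 0.16, adjusted p = 0.169). In males the change was −0.56 (SE 0.18, adjusted p = 0.227). *Ppargc1a*, a coactivator of mitochondrial biogenesis, read 6.29, 5.79, 7.03 and 6.7 in male WT and 4.86, 3.9, 3.94 and 5.61 in male KO. Each KO library was below each WT library, as in 4.27% of all genes, with a log2 fold change of −0.46 (SE 0.12, adjusted p = 0.165). In females it ranged from 5.19 to 17 in WT and from 5.04 to 34.0 in KO. *Gabpa*, which binds ETS motifs, had −0.66 (SE 0.17, adjusted p = 0.169) in females and −0.14 in males. Genotype and the 3′ to 5′ ratio are confounded in all female values here, those of *Ppara* and *Gabpa* included. *Nrf1* had 0.14 in males and 0.25 in females, *Esrra* −0.02 and −0.09, and *Tfam* −0.19 and −0.10. Of 38 genes with complex I subunit symbols, among them *Ndufa4*, which belongs to complex IV and is counted in both lists, 0 were higher and 12 lower in males (31.6%, against 7.3% of all genes; median −0.19). In females 1 was higher and 2 were lower (5.26%, against 10.3% of all genes; median 0.19).

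To show what the members share outside expression, their promoters were searched for motifs of such regulators on both strands. RefSeq promoters, from 250 bases before to 50 bases after the start (mouse GRCm38.p6), matched 38 of the 52 members. The NRF1 motif GCGCATGC was in 8 of these 38 (21.1%) and in 3.05% of 27025 genes with a promoter. The ETS motif CCGGAAGT was in 4 (10.5%, against 4.31%), the ERR motif TCAAGGTCA in 2 (5.26%, against 0.466%), the YY1 motif AAGATGGCG in 2 (5.26%, against 1.64%) and the CRE motif TGACGTCA in 2 (5.26%, against 2.03%). A match describes the letters only and is not a binding site or a cause of any value here. The members with the NRF1 motif were *Sdhb*, *Uqcr11*, *Uqcrc1*, *Cycs*, *Cox6a1*, *Atp5g2*, *Atp5k* and *Atp5l*, whose log2 fold changes in males ran from −0.30 for *Atp5g2* to 0.08 for *Uqcrc1*. *Cycs* held the NRF1 and the CRE motif at separate places and *Uqcr11* the NRF1 and the ETS motif. The upstream matches to the NRF1 motif are shown 5′ to 3′ on the strand of the gene with 8 bases on each side, with the motif or its reverse complement in capitals, followed by the CRE match of *Cycs* and the ERR match of *Atp5g3*. In *Atp5k*, *Cox6a1* and *Atp5g2* the NRF1 letters also match on the opposite strand, at an overlapping position.
Sdhb (chr4:140961209-140961232, plus strand): cccagtggGCATGCGCcctacggg
Cycs (chr6:50566614-50566637, minus strand): gctagctcGCATGCGCgcgcacaa
Cox6a1 (chr5:115349105-115349128, minus strand): ggaacgggGCGCATGCgcgctctc
Atp5k (chr5:108434434-108434457, minus strand): tcactgcgGCGCATGCgcctttct
Atp5l (chr9:44920967-44920990, minus strand): ccaataacGCATGCGCatttcccc
Atp5g2 (chr15:102671074-102671097, minus strand): ctccggccGCGCATGCgcagagcc
Cycs, CRE (chr6:50566723-50566746, minus strand): ccagagggTGACGTCAcgcacgtc
Atp5g3, ERR (chr2:73911362-73911386, minus strand): ttacaaagTGACCTTGAgcgtcttc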

How the data were processed

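BAT was sequenced from 4 mice in each group. The authors made stranded polyA libraries and quantified transcripts with kallisto 0.46.2, per the submitters' processing notes, and the deposited values are TPM per transcript, which keep no read depth. The spread between libraries is the measure of precision. Of 137438 transcripts, 135051 matched GENCODE mouse M21 and 2387 did not. TPM was summed per symbol and divided by median-of-ratios factors. Differences were tested with limma 3.58.1 (R 4.3.3; eBayes with trend) on log2(TPM + 0.5), which understates changes of low genes, for genes with a mean of at least 1, with Benjamini-Hochberg adjustment over all genes and a threshold of 0.05. Isoform shares were compared with exact permutation tests (scipy 1.17.1). Tables were built with Python 3.11.15, numpy 2.4.6 and pandas 2.3.3, and the model code was tested on simulated data. The authors' count-based test was not used because the values are TPM. Subunit 8 was tested as the *Cox8b* share although *Cox8c* was listed at 0, and *Cox7b2* was too low to test.

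Members and lists were chosen with earlier results of these data known. Genes named are the isoform families and *Cox7a2l*, core subunits, the highest and lowest member of each complex, up to 5 members per comparison and direction by p, up to 2 genes per other list and direction, and *Gdf15*, *Ucp1*, *Ppargc1a*, *Nrf1*, *Esrra*, *Gabpa* and *Tfam*; a marker list's most abundant gene and *Ndufa4*, which is in 2 lists, are named too, and any other gene was named after its values were seen. No library was identical to another. Alternatives covered scaling, pseudocount, TPM minimum, trend, transcript type, library-name number, length and GC content, the replicate number as a block and each library left out; the 3′ to 5′ ratio covariate and the removal of several libraries at once were added after seeing the data.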

Additional observations from a re-analysis of the deposited data

Results flagged for a closer look

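By chance about 1 in 20 independent groups of 4 libraries would hold a library far from the other 3 relative to the group's range. The groups examined here share libraries and are not independent, so no excess over chance can be read from their count. Of 244 groups, 23 held such a library. Of these, 9 were male WT 2 with high values: *Uqcrq* 1557 (others 1064 to 1125), *Uqcr10* 1212 (898 to 947), *Uqcr11* 1370 (980 to 1033), *Cox5b* 1958 (1452 to 1498), *Cox4i1* 2251 (1808 to 1874), *Cox4i2* 5.32 (4.03 to 4.15), *Cox7a2* 964 (715 to 744), *Atp5e* 1220 (885 to 918) and the complex IV sum 21079 (16119 to 16814). Its 3′ to 5′ ratio, 0.308, was also the highest of the male libraries, and its part in these values was not tested.

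Male KO 1 was high in *Uqcr10* (956, others 785 to 810), *Atp5b* (5499, others 4788 to 4818) and *Atp5l* (581, others 468 to 479), and male KO 4 was low in *Uqcrc1* (919, others 946 to 950) and *Atp5c1* (423, others 449 to 454). Female WT 4, the library with 17.7% of its TPM outside the annotation, was low in *Sdhc* (440, others 521 to 533), *Uqcc2* (72.2, others 95.7 to 96.8) and *Cox6c* (909, others 1442 to 1547). Female KO 1 was high in *Cox5a* (1013, others 859 to 872).

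*Cox6a2* was high in female WT 2 (21.4, others 0 to 1.19) and in female KO 3 (46.5, others 0 to 5.84), and so was its share of subunit 6A (1.61%, others 0 to 0.0764%, and 3.02%, others 0 to 0.324%). In these libraries the skeletal muscle markers summed to 2079 and 5712. The *Cox6b2* share was high in female KO 2 (1.13%, others 0.706 to 0.776%). *Uqcr10* and *Cox6c* are named because of these values.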

How the results depend on the processing

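No member passed an adjusted p of 0.05 in males, in the difference between the sexes or between the WT groups under any setting run, and in females 1 (*Cox4i2*) did with all 16 libraries in one fit. The pseudocount, the TPM minimum and the trend left the male median at −0.17. On the TPM as deposited it was 0.00, with the median of all genes at 0.16, so that relative to all genes the members were about as low. In females it was 0.04 with the 3′ to 5′ ratio as a covariate and −0.01 without WT 4, KO 1 and KO 4. With length and GC trends removed it was 0.08. The median difference between the sexes was 0.19 with length and GC trends removed and 0.08 with the ratio as a covariate. Removing length and GC trends gave 22 lower members in males, beside 10.5% of all genes. With the ratio, *Sdhc* in females was 0.04, and over protein-coding transcripts the *Atp5b* difference was −0.44; the causes were not tested. Among named members with an unadjusted p of 0.05 or more, 43 of 769 values changed sign in males, 46 of 840 in females, 43 of 660 for the difference and 52 of 860 between WT groups. The TPM on annotated transcripts outside the mitochondrial genome was also rescaled to a common total. The sums of complexes II, III, IV and V and of cytochrome c were then 5274, 17211, 33900, 28436 and 154, larger because the total is smaller.

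The difference (KO minus WT) in the *Cox6b2* share in females, −0.00369 points, turned to 0.000182 as a log2 ratio and 0.0334 points over protein-coding transcripts. That of *Cox7a1*, −0.792 points, turned to 1.48 over protein-coding transcripts. With each library left out, share differences ran from −0.0444 to 1.28 for *Cox6a2* and −0.426 to 0.239 for *Cox7a1* in males, and −0.312 to 0.812 for *Cox6a2* and −0.1 to 0.108 for *Cox6b2* in females. The members' medians ran from −0.23 to −0.11 in males, 0.10 to 0.25 in females, 0.21 to 0.43 for the difference and −0.20 to −0.03 between WT groups.

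Replicate numbers gave no pairing: correlations of same-numbered libraries were 0.188, −0.0849, 0.0401 and 0.356 in males and 0.146, −0.103, −0.0633 and 0.0645 in females, and 2 and 1 of 4 numbers correlated best with their own. With the number as a block, 0 members were higher and 12 lower in males (8.03% and 7.15% of all genes), 4 and 4 in females (10.8% and 10.7%), and 23 and 4 for the difference (9.13% and 10.3%), whose median was 0.19 with length and GC trends also removed. The smallest p for a share under the block is 0.125. The library-name number could not be fitted as a covariate between the WT groups. TPM keep no read depth, so what depth limits is unknown.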
